A study of Mus musculus with 2 samples.

Results

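Ribosomal protein genes, together with the tissue paralogs and the annotated copies that carry their names, were described in lung of mouse embryos at embryonic day 14.5. Members were the protein-coding genes present in both libraries' gene tables whose symbol starts with Rpl or Rps and a digit, plus Rplp0, Rplp1, Rplp2, Rpsa and Fau, with the Rps6k kinases left out. The rule found 93 genes of 21474 protein-coding genes and 43346 mouse genes in all. By symbol, 78 were standard genes, 32 of the small and 46 of the large subunit. A further 7 were paralogs, namely Rpl22l1, Rps27l, Rpl36al, Rpl7l1, Rpl39l, Rpl3l and Rpl10l. Another 7 were copies with a pseudogene-style symbol or one ending in rt, which the annotation types as protein-coding. The remaining gene, Rps19bp1, encodes a protein that binds the small-subunit protein of Rps19 and is not itself part of the ribosome. The study has 1 group of 2 libraries of total RNA from lung of strain B6NCrl, called replicate 1 and replicate 2 here after the biological replicate numbers in the labels. The starting amount was 10 ng of RNA of at least 200 nt for both. How many animals were used for a library is unclear, since pooled sexes and a single pup are both named. Sex-linked genes went against the label of pooled sexes. On the Y chromosome, Uty, Kdm5d, Ddx3y and Eif2s3y had 17.6 to 47.4 TPM in replicate 1 against 0 to 0.02 TPM in replicate 2, while Xist, the RNA of X inactivation, had 0.07 TPM in replicate 1 against 70.1 TPM in replicate 2. By these genes replicate 1 is male and replicate 2 female. The tissues were collected on July 15 and 17, so library, sex and collection day cannot be told apart, and every test below compares these libraries and no condition.

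Each ribosome joins a small subunit, which reads the mRNA, to a large subunit, which forms the peptide bonds. Most ribosomal proteins are present in equal numbers in each ribosome, while the stalk proteins of Rplp1 and Rplp2 are present in more copies. Their mRNAs begin with a pyrimidine tract through which mTOR signalling controls their translation, and growing tissues such as the branching lung need many ribosomes. Mammalian genomes also hold many processed pseudogenes of these genes, made by reverse transcription of their mRNAs. Some standard genes have a paralog that encodes an alternative protein, such as Rpl3l in heart and skeletal muscle, and Rpl10l and Rpl39l in testis.

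The coding sequences of 3 pairs are shown because their differences are part of what separates reads of a paralog from reads of its standard gene. All are spliced exon sequence on GRCm38 from GENCODE M21, written 5′ to 3′ without the stop codon, with capitals at bases that differ from the partner or have no partner in the alignment. Rpl39l lies on chromosome 16 from 10170226 to 10174911 on the plus strand, and Rpl39 on chromosome X from 37082520 to 37085402 on the minus strand. Their coding sequences, each of 153 nt, differ at 23 bases.
Rpl39l: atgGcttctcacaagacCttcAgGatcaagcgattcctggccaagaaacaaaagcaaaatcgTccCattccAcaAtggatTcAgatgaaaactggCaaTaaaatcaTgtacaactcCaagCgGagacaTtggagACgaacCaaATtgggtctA
Rpl39: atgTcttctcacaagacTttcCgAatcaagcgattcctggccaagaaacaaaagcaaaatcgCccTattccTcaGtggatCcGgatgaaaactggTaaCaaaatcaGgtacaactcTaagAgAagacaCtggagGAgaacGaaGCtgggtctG
Rps27l lies on chromosome 9 from 66946086 to 66949516 on the plus strand, and Rps27 on chromosome 3 from 90212522 to 90213651 on the minus strand. Both coding sequences are 252 nt long and differ at 60 bases.
Rps27l: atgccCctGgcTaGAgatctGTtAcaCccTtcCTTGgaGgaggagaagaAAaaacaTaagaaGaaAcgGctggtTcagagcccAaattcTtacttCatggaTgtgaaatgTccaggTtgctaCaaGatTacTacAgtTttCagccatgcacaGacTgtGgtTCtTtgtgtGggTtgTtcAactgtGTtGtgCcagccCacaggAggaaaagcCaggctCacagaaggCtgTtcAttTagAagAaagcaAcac
Rps27: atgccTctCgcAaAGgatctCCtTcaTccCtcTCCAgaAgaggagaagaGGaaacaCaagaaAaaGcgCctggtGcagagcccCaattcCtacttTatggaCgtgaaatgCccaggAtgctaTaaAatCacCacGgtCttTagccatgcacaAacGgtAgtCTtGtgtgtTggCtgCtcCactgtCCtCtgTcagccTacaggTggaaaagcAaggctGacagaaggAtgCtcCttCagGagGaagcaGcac
Rpl22l1 lies on chromosome 3 from 28805436 to 28807424 and Rpl22 on chromosome 4 from 152325742 to 152334071, both on the plus strand. The first 150 coding bases of each are shown.
Rpl22l1: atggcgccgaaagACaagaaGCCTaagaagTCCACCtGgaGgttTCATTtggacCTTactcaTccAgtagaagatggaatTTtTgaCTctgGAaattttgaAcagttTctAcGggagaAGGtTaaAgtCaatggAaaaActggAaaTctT
Rpl22: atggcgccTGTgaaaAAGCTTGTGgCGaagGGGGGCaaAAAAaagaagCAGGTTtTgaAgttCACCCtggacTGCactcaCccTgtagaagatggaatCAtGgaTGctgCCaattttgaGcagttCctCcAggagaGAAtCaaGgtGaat
Identity over the aligned coding bases was 85.0% for Rpl39l, 76.2% for Rps27l and 70.8% for Rpl22l1. The other paralogs had 87.7% (Rpl36al with Rpl36a), 84.7% (Rpl10l with Rpl10), 74.3% (Rpl3l with Rpl3) and 59.8% (Rpl7l1 with Rpl7). The 6 copies compared were closer to their standard genes, and Rpl36-ps4 was not compared. Rps27rt, Rpl10-ps3 and Rps12-ps3 were 100% identical to the aligned coding sequence of Rps27, Rpl10 and Rps12. For Rps12-ps3 this covers 396 nt, and 15 of the 411 coding bases of Rps12 had no partner. Rpl9-ps6 differed from Rpl9 at 1 base of 576. Rpl36a-ps1 was 97.8% identical to Rpl36a, and Rpl9-ps1 95.3% identical to Rpl9.

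All 78 standard genes were detected in both libraries, and they were among the most abundant mRNAs of the lung. Levels are in TPM, the deposited abundance unit that divides counts by effective length. Their median was 886 TPM, against 4.10 TPM for all protein-coding genes, and 36 of them were among the 100 highest protein-coding genes. Small-subunit genes had a median of 983 TPM and large-subunit genes 806 TPM. Of the counts on mouse genes, members took 3.17% in replicate 1 against 3.09% in replicate 2, or 3.13% ± 0.0580 (SD, n = 2), out of 31940637 and 33167255 counts. The exact 95% binomial intervals, which cover counting error only, were 3.16% to 3.17% and 3.08% to 3.09%. The SD between libraries was 2.72% of the mean for the median standard gene. Rpl41, which encodes the shortest ribosomal protein, was highest with 3851 TPM in replicate 1 against 3797 TPM in replicate 2. Rps19, a small-subunit gene whose human counterpart is mutated in Diamond-Blackfan anaemia, followed with 2478 and 2479 TPM in replicates 1 and 2. Next came the large-subunit gene Rpl32 with 2025 TPM in replicate 1 against 1912 TPM in replicate 2. Others of the 8 highest were Rps14 at a mean of 1734 TPM, Rps18 at 1614, Rpl37a at 1578 and Rpl36 at 1565 TPM. Rpl41, Rps19 and Rpl32 were each separated from the next gene by more than the range of their 2 libraries, whereas Rps18 and Rpl37a overlapped. Of the stalk genes, Rplp0, which anchors the stalk, had 1480.1 ± 82.1 TPM, Rplp1 1290 ± 36.0 TPM and Rplp2 1155 ± 10.4 TPM (SD, n = 2).

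At the other end, Rpl5 had 63.1 TPM in replicate 1 against 61.9 TPM in replicate 2. Its protein joins a small ribosomal RNA and the protein of Rpl11, which stood at 421 TPM, before entering the large subunit. Rpl27a had 123 and 134 TPM in replicates 1 and 2, and Rpl27 had 164 and 160.1 TPM. The next in order were Rpl12 at 194 TPM, Rps23 at 287, Rpl37 at 290.1, Rpl28 at 305 and Rps12 at 319 TPM. The deposited levels of standard genes thus spanned 61.1-fold from lowest to highest, with a 2.06-fold ratio of upper to lower quartile. Neither of the 2 libraries placed another gene among these 8.

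**Figure D1:**
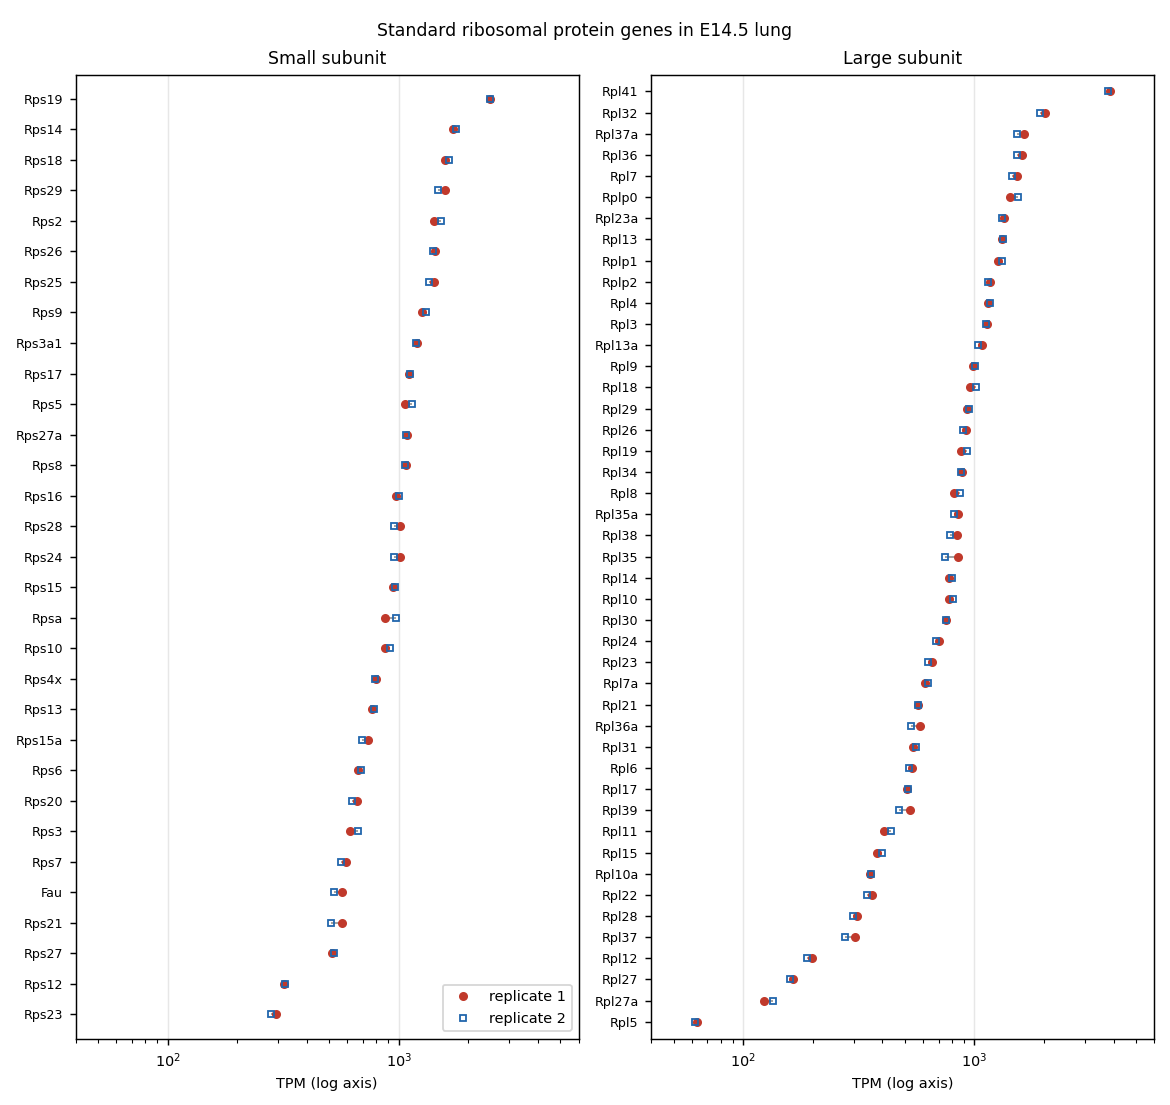
TPM of the standard ribosomal protein genes on a log axis, but for a few not reported here, small subunit on the left and large subunit on the right, with filled circles for replicate 1 and open squares for replicate 2. The libraries lie close together, and Rpl5, at 63.1 and 61.9 TPM, stands lowest.

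All 8 of these lowest genes have near-identical copies elsewhere in the genome that took most of the family's TPM. A copy was a gene typed as a pseudogene, another member or a gene with a Gm symbol, with standard genes and paralogs left out. Its transcript had to match the coding sequence in the same sense, at 90% identity or more over 70% or more of the coding length. Each copy was given to its best-matching gene only. This definition was added after the values were seen. Of the 78 standard genes, 73 had at least 1 copy, 702 in all, and 165 copies had at least 10 counts in both libraries. Summed over the standard families, copies held 22.1% of TPM in replicate 1 and 21.9% in replicate 2. In 28 families copies held at least 10% of the TPM and in 13 families at least 50%. For Rpl5, 92.5% of the family's TPM lay on copies, almost all on Gm15500, a transcribed processed pseudogene 100% identical in coding sequence, which had 756 TPM in replicate 1 against 793 TPM in replicate 2. Rpl5 with its copies came to 838 ± 25.2 TPM (SD, n = 2), beside 62.5 TPM for the gene alone. Rpl27 went with Rpl27-ps3 and Gm11518 (87.7% on copies), Rpl27a with Gm7536 (84.1%), and Rps23, whose protein sits at the decoding centre, with Rps23-ps1 (83.3%). Rps23-ps1 had 1457 TPM in replicate 1 against 1388 TPM in replicate 2, while Rps23 itself had 295 and 280 TPM. Rpl37 (74.4%), Rpl12 (71.2%), Rpl28 (70.3%) and Rps12 (60.6%) completed the lowest 8. These are shares of TPM, and counts are not divided by length. Among these genes only Rpl37 itself held most of its family's counts, at 5220 of 9099 in replicate 1 and 4735 of 8385 in replicate 2.

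With copies added, none of these genes remained among the 8 lowest, and 3 of the 8 highest remained among the 8 highest. The span of the standard families then fell to 11.8-fold, against 61.1-fold for the genes alone, and the quartile ratio to 1.76-fold, against 2.06-fold. The median was 1084 TPM with copies and 886 TPM without. Lowest with copies was Rpl22 at 353 ± 13.6 TPM, followed by Rpl39 at 532 ± 36.7 TPM and Rps21 at 539 ± 43.2 TPM (SD, n = 2). Rpl41 stayed highest at 4156 ± 42.8 TPM, followed by Rps29 with its copy Gm14303 at 2942 ± 97.8 TPM. These sums depend on the lengths of the annotated copies, since TPM divides by effective length. In replicate 1 Gm14303 had 2295 counts at 1429 TPM, beside 10264 counts at 1581 TPM for Rps29. The deposited values carry their own measure of uncertainty in each count, its posterior SD. Among standard genes it exceeded the counting SD most for Rps27, Rpl10, Rps6, Rps12, Rpl13 and Rpl10a, at 1.57 to 2.63 times. Each of these has copies, as do 73 of the 78 standard genes. Rps27 had a posterior SD of 106.8 counts in replicate 1 and 113 counts in replicate 2. For Rpl15-ps3, the main copy of the Rpl15 family, it was 1034 counts of 11734 in replicate 1 and 991 of 12505 in replicate 2. For the 8 lowest genes, Rps12 among them, it ran from 0.592 times (Rpl37, replicate 2) to 1.96 times (Rps12, replicate 1) the counting SD. For Rpl5 it was 47.1 of 1677 counts in replicate 1 and 48.2 of 1669.6 counts in replicate 2, and for its copy Gm15500 39.6 of 15265 and 40.2 of 16005 counts. These values describe how firmly the authors' quantification divided the reads between gene and copy, and the accuracy of that division was not tested.

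**Figure D2:**
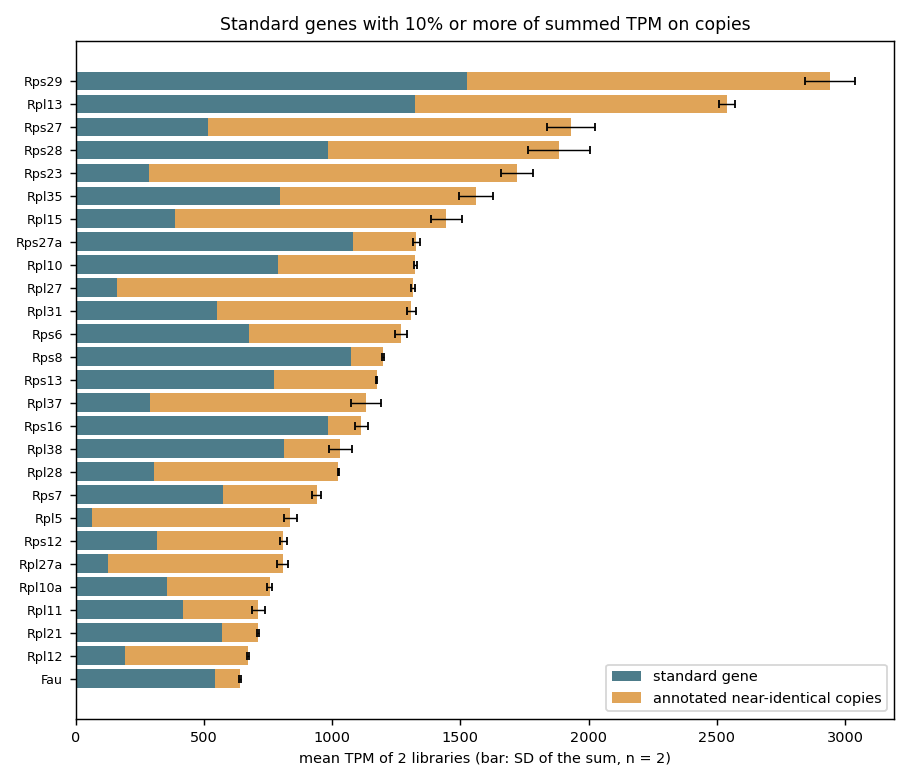
Mean TPM of the 2 libraries for standard genes with at least 10% of their family's TPM on copies, as stacked bars of the gene itself and its annotated near-identical copies, with the SD of the sum (n = 2). For Rpl5, Rpl27, Rpl27a and Rps23 the copies make up more than 80% of the bar.

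Of the 7 paralogs, 3 stood level with their standard gene in gene TPM and 1 stood well below it. The 3 known from testis or muscle had 1 count or none. Rpl22l1, the paralog that the protein of Rpl22 is known to repress in mouse, had 412 TPM in replicate 1 against 361 TPM in replicate 2, while Rpl22 had 362 and 343 TPM. The mean log2 difference in gene TPM was 0.13 ± 0.08 (SD, n = 2), higher for Rpl22l1 in both libraries. By counts, not divided by length, Rpl22l1 was lower, at 3894 against 4383 in replicate 1 and 3471 against 4266 in replicate 2. A processed transcript held 134 and 103 TPM of Rpl22l1 in replicates 1 and 2. The most abundant protein-coding transcript had 204 and 191 TPM for Rpl22l1, below the 312 and 295 TPM of that of Rpl22. Rps27l, a target of p53, had 564 and 529 TPM in replicates 1 and 2, and Rps27 had 512 and 524 TPM. That log2 difference of 0.08 ± 0.09 (SD, n = 2) was no larger than its own spread, and it depends on how the copies of Rps27 are counted. Rps27rt, identical to Rps27 over all 252 coding bases, had 1483 TPM in replicate 1 against 1337 TPM in replicate 2, or 74.3% and 71.8% of the TPM that it and Rps27 share. Set against Rps27 and its copies together, Rps27l stood at a log2 level of −1.82. Rpl36al had 511 and 490.2 TPM in replicates 1 and 2, and Rpl36a 583 and 532 TPM, a log2 difference of −0.15 ± 0.05 (SD, n = 2), lower in both libraries. Rpl7l1 was 13.0-fold below Rpl7, with 112 and 118 TPM for Rpl7l1 and 1522 and 1460 TPM for Rpl7. An exact permutation test over 2 libraries cannot pass a threshold of 0.05, so these differences are given with their spread alone.

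Rpl39l had 1 count in each library, 0.10 TPM in replicate 1 against 0.06 TPM in replicate 2, beside 526 and 471 TPM of Rpl39. Rpl39 was thus 5265 times as high in replicate 1 and 7854 times in replicate 2, with counting intervals of 950.4 to 209154 and 1337 to 294168. Rpl3l had 0 counts in both libraries, and Rpl3, at 1129 and 1119 TPM, was at least 7582-fold higher in replicate 1 and 7544-fold in replicate 2 than the 3 counts per library that a count of 0 allows. Rpl10l also had 0 counts, and Rpl10 was at least 5315-fold and 5545-fold higher than that limit in replicates 1 and 2. These limits cover counting error only. None of 8 germ cell and testis markers reached 1 TPM in both libraries, and their summed level was 0.59 TPM in replicate 1 against 0.55 TPM in replicate 2, with Acrv1, Prm2, Stra8 and Tnp1 at 0 counts. Heart muscle markers were present, with 465 TPM summed over 10 genes in replicate 1 and 38.9 TPM in replicate 2, and 9 of the 10 were called higher in replicate 1. Myl7, an atrial myosin light chain gene, had 269.9 TPM in replicate 1 against 17.3 TPM in replicate 2. Skeletal muscle markers summed to 19.7 and 14.7 TPM in replicates 1 and 2, with 4 of 10 detected. Rpl3l was at 0 counts in both libraries beside these levels.

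**Figure D3:**
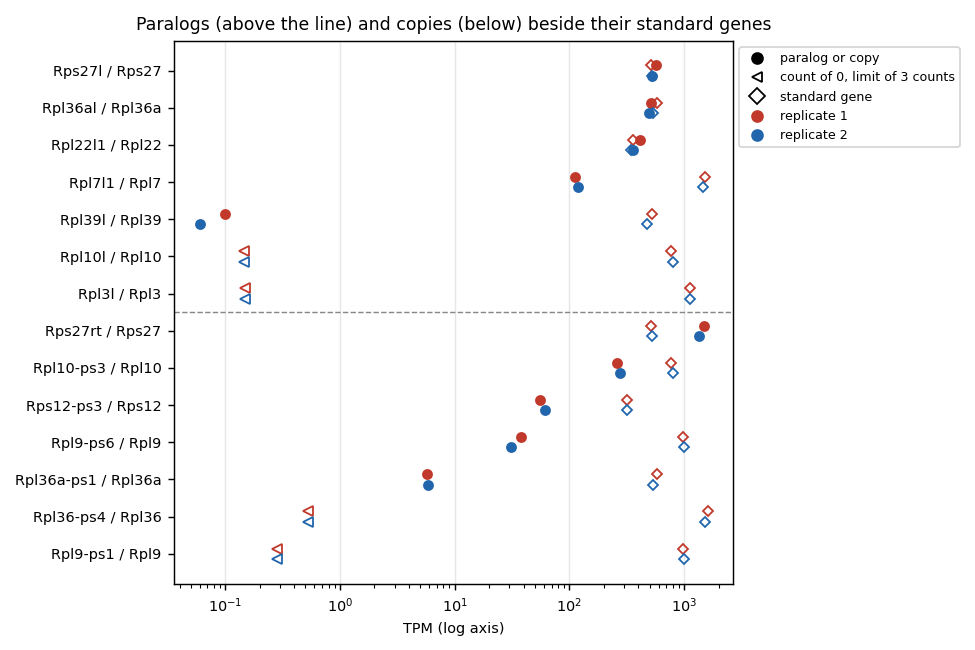
TPM on a log axis of each paralog (above the dashed line) and each copy (below it) as filled circles, beside its standard gene as open diamonds, with replicate 1 in red above replicate 2 in blue. Open triangles mark a count of 0 at the level that 3 counts would give; Rpl22l1, Rps27l and Rpl36al lie beside their standard gene, and Rpl39l, Rpl10l and Rpl3l lie at the far left.

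The copies ranged from above their standard gene to absent. Rps27rt was 2.72-fold above Rps27. Rpl10-ps3 had 260.5 TPM in replicate 1 against 277 TPM in replicate 2, or 25.2% and 25.7% of the TPM it shares with Rpl10. Its posterior SD was 405 counts in replicate 1 and 356 in replicate 2, or 6.63 and 5.64 times the counting SD. Rps12-ps3 had 55.4 and 61.1 TPM in replicates 1 and 2, Rpl9-ps6 37.9 and 31.1 TPM, and Rpl36a-ps1 5.79 and 5.87 TPM. Rpl36-ps4 and Rpl9-ps1 had 0 counts in both libraries. The posterior SD of Rpl9-ps6 was 61.1 of 501 counts in replicate 1 and 49.0 of 412 in replicate 2, and that of Rps12-ps3 was 50.7 of 488 and 54.2 of 540.3 counts. The binding protein gene Rps19bp1 had 44.2 TPM in replicate 1 against 48.9 TPM in replicate 2.

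Of the summed TPM of standard genes, 91.1% ± 0.281 (SD, n = 2) lay on transcripts that the annotation types as protein-coding. Processed transcripts without an open reading frame held 3.85%, transcripts with a retained intron 3.22%, nonsense-mediated decay transcripts 0.542% and transcripts not matched to the newer release 1.25%. In 10 standard genes a transcript of one of these types carried at least 20% of the gene in both libraries. Rps20-201, typed as retained intron, carried 92.2% of Rps20 in replicate 1 and 92.1% in replicate 2. Rpl35-203, a processed transcript, carried 89.3% and 88.5% of Rpl35 in replicates 1 and 2. Rpl12-201, typed as nonsense-mediated decay, carried 72.5% and 72.1% of Rpl12. Rpl23-204 carried 65.7% and 63.7% of Rpl23, a processed transcript of Rps18 49.3% and 43.1% of it, and Rpl5-205 43.9% of Rpl5 in both libraries. In Rpl13a 2 unmatched transcripts carried such a share, at 28.3% to 39.2%, and the remaining genes were Rpl7, Rps19 and Rpl24 at 24.4% to 32.5%. Among the paralogs, a processed transcript carried 32.6% of Rpl22l1 in replicate 1 and 28.7% in replicate 2. The protein-coding transcript of Rpl22l1 whose coding sequence is given carried 49.6% and 52.9%. These types come from the annotation, and whether the transcripts are translated was not tested.

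No member differed by 2-fold or more between the libraries. Of 14870 genes tested, 169 or 1.14% were called by an exact two-sided binomial test at an adjusted p under 0.05 and 2-fold or more, and 0 of the 88 members tested were. An edgeR exact test at a common dispersion also called 0 members, and 106 genes in all, at 2-fold or more. At an unadjusted p under 0.05 the binomial test gave 48 members higher and 7 lower in replicate 1, beside 2474 higher and 2448 lower among all 14870 genes. The largest ratio was 1.27-fold, for Rpl9-ps6, with 501 counts in replicate 1 and 412 counts in replicate 2. The posterior SDs of these counts were 61.1 and 49.0. The members' median log2 ratio of replicate 1 over replicate 2 was 0.07. The 5 untested members were Rpl39l, Rpl3l, Rpl10l, Rpl36-ps4 and Rpl9-ps1, all under 1 TPM.

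Without the 2-fold limit the binomial test found small differences, mostly in one direction. Higher in replicate 1 were 46 members (52.3%), against 11.5% of all genes tested, and lower were 4 (4.55%), against 11% of all genes tested. Spike-in scaling, which moved the median log2 ratio of all genes to −0.34, put the members' median at −0.28, with 0 members higher and 86 lower. The share of all genes passing at any size under that scaling was not counted, so the 86 cannot be read as particular to members. The edgeR exact test, which allows for spread between libraries, called none in either direction. That spread was estimated from these same 2 libraries, so the difference under test counts as spread. The result cannot decide on ratios this small. Among the standard genes the largest ratio was that of the small-subunit gene Rps21. It had 3753 counts in replicate 1 and 3365 in replicate 2, a log2 ratio of 0.22 with an adjusted p of 7.3e-09 in the exact binomial test. Rpl35 had 8450.2 counts in replicate 1 and 7578 in replicate 2, also at 0.22, and Rpl39 had 6015 and 5405 counts in replicates 1 and 2 at a log2 ratio of 0.22. Rpl37 at 0.20, Rpl36a at 0.18 and Rpl38 at 0.17 were the next standard genes by size. Counting copies with the gene moved some of these ratios. Rpl35 then stood at 0.15, and Rps27, at 0.02 and not called alone, stood at 0.17 with an adjusted p of 5.8e-16 in the exact binomial test. Rps21 at 0.22, Rpl39 at 0.20, Rpl37 and Rpl36a at 0.18 and Rpl38 at 0.16 moved less. The 4 lower in replicate 1 were Rpsa, which also serves as a laminin receptor precursor, at −0.09, Rps3 at −0.06, Rplp0 at −0.05 and Rps2 at −0.05. Rpsa had 34355 counts in replicate 1 and 38231 counts in replicate 2. Among the paralogs Rpl22l1 (0.23), Rps27l (0.15) and Rpl36al (0.12) were higher in replicate 1, while Rpl7l1 stood at −0.02 and did not pass. Of the 5 copies tested, Rpl9-ps6 (0.34) and Rps27rt (0.21) were higher in replicate 1 by counting error alone. The binomial test leaves out the posterior SD of the counts. In replicates 1 and 2 it was 2.73 and 2.41 times the counting SD for Rpl9-ps6, and 1.13 and 1.25 times for Rps27rt. The X-linked genes Rps4x, Rpl10, Rpl36a and Rpl39 had a median log2 ratio of 0.13 and ran from −0.00077 to 0.22, and the 74 autosomal standard genes had a median of 0.05 and ran from −0.09 to 0.22. The X-linked values thus lay within the autosomal range, in libraries that also differ in sex.

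Length went with these small differences among the standard genes. Standard genes higher in replicate 1 had a median length of 584 nt, and the 4 lower ones 1452 nt. Across the 78 standard genes the log2 ratio had a Spearman correlation of −0.45 with length, a description over genes of the same libraries. Over 3346 other protein-coding genes at 10 TPM or more and up to 2000 nt it was −0.04. Standard genes over 400 and up to 600 nt had a median ratio of 0.08, and 137 other protein-coding genes of that length at 10 TPM or more 0.05. Among 97 non-member protein-coding genes of up to 600 nt with a mean count of 1000 or more, 36.1% were higher in replicate 1 and 4.12% lower. Among 6839 such genes of any length with that count, 13.9% were higher and 15.1% lower. The part of length in the members' ratios was not tested beyond these values.

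**Figure D4:**
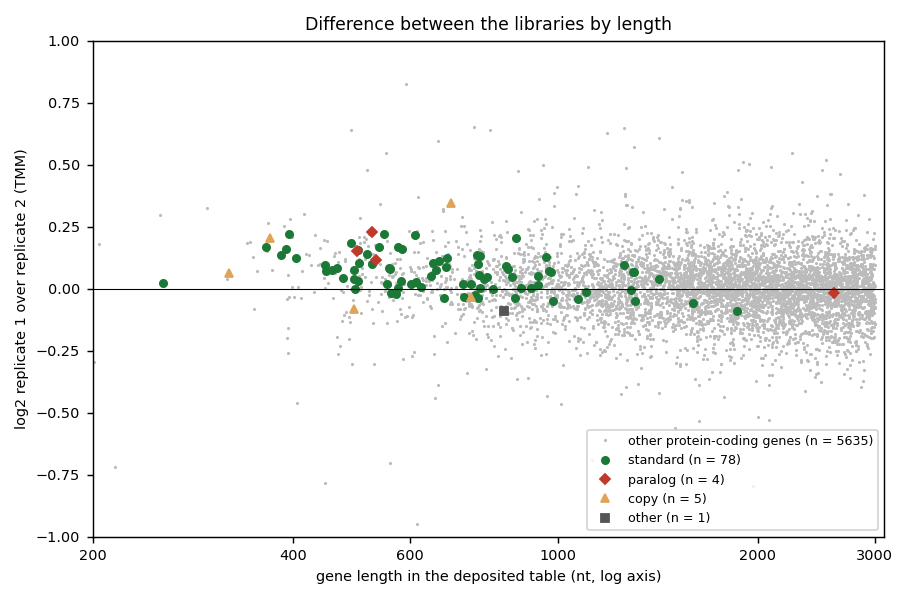
Log2 ratio of replicate 1 over replicate 2 after TMM scaling against gene length in the deposited tables (log axis) for tested members by class, with other protein-coding genes at 10 TPM or more in grey, as far as they lie within the axes. Members lie within 0.35 of 0, and shorter ones tend to lie higher; under spike-in scaling all points shift down by 0.34.

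Genes that make or use ribosomes had lower medians than the standard genes, and none differed by 2-fold. Their counts at any size are to be read against 11.5% of all genes higher and 11% lower in replicate 1. Of 19 translation factors and other mRNAs with a pyrimidine tract at the start, all were detected, with a median of 410.3 TPM. The elongation factor gene Eef1a1 reached 4512 ± 38.9 TPM, above every ribosomal protein gene. In this list 4 were higher and 3 lower in replicate 1 at any size by the exact binomial test, and 0 passed 2-fold. The ribosome-bound scaffold gene Rack1 had 748 ± 16.6 TPM (SD, n = 2). The 77 mitochondrial ribosomal protein genes all passed 1 TPM, at a median of 84.7 TPM. Mrpl17 was highest at 302 ± 7.72 TPM, and of the list 2 were higher and 2 lower in replicate 1 at any size. The 35 ribosome assembly factors had a median of 58.9 TPM, led by Ncl, the gene of nucleolin, at 314 ± 16.3 TPM, and 0 were higher and 7 lower in replicate 1. The 11 genes of RNA polymerase I and its factors, which transcribe ribosomal RNA, had a median of 33.2 TPM with 0 higher and 2 lower. A mixed list of 13 genes, of mTOR signalling and the pyrimidine tract with Myc, Mycn and Mdm2, had a median of 27.4 TPM. Here too 0 were higher and 2 lower, namely Mycn and Rps6kb2. The list included Myc at 78.0 ± 3.59 TPM and Larp1, which binds the pyrimidine tract, at 20.5 ± 1.67 TPM. The direction of these any-size counts rests on TMM scaling.

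**Figure D5:**
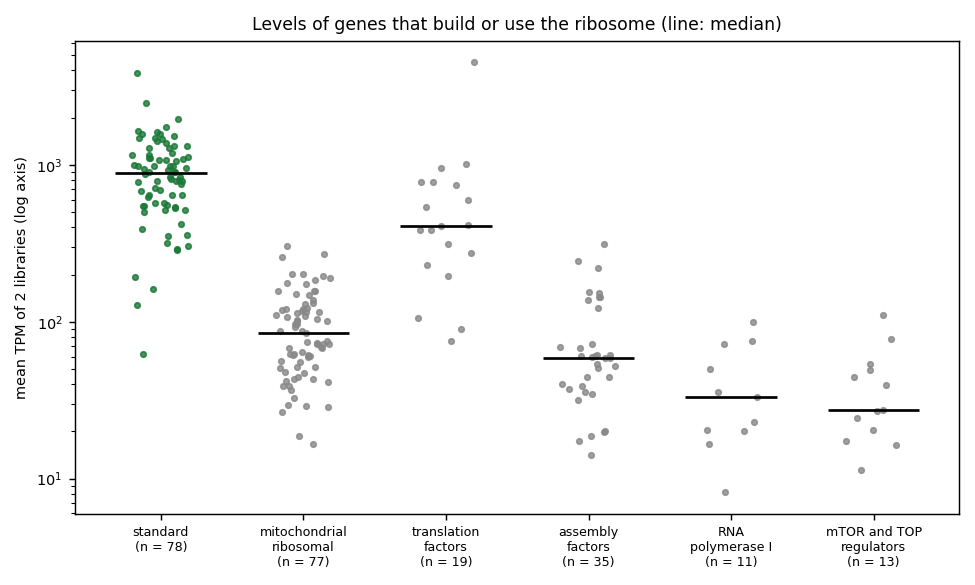
Mean TPM of the 2 libraries on a log axis for each gene of the standard ribosomal protein class (green) and of 5 other groups (grey), with the median as a line. The standard class lies highest with a median of 886 TPM, followed by the translation factors at 410.3 TPM.

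All 10 lung markers were detected, as were 7 of 7 erythroid markers, which summed to 7018 TPM in replicate 1 against 7359.9 TPM in replicate 2. Among 5 sex-linked genes 4 were called higher (the Y-linked genes) and 1 lower (Xist) in replicate 1. The part of sex in the members' ratios was not tested.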

How the data were processed

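Both libraries were analysed from the gene and transcript tables that the authors deposited. Per the file headers these hold expected counts (estimated reads per feature), TPM, posterior mean TPM with posterior standard deviations of the counts (another kind of value), and, per transcript, the percent of its gene's TPM. The deposited read-me files name mm10 and GENCODE M4; the sources used here do not give the aligner, the quantification program or the use of strand. No per-sample column was left out (0).

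Names, types and coordinates (1-based) came from GENCODE M21 on GRCm38, which matched 42462 of 43346 mouse genes by unversioned identifier. Expected counts were rounded, scaled with TMM (edgeR 4.0.16, R 4.3.3) and compared with an exact two-sided binomial test after a filter at mean TPM of 1, with Benjamini-Hochberg adjustment over 14870 genes. Ratios carry 0.5 added to each count. With 1 library on each side of a comparison the binomial test sees counting error only. It takes the expected counts as observed and leaves out their posterior SD. The edgeR exact test used the common dispersion of the libraries, a biological coefficient of variation of 9.58%. It was estimated from the 2 libraries taken as 1 group, so it includes the difference under test. Copies were found with BLAST 2.17.0 from the coding sequence of each gene's most abundant protein-coding transcript, and pair identities with Biopython 1.88. A count of 0 allows 3 counts, or 0.0939 CPM in replicate 1 and 0.0905 CPM in replicate 2.

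The members and gene lists were chosen with earlier results of these data known. Of the listed symbols, 2 assembly factors, 1 RNA polymerase I gene and 1 erythroid marker were not matched. Named genes were all non-standard members with their standard genes, the 8 highest and 8 lowest standard genes, the 6 with the largest ratios and the 6 with the largest posterior SD relative to counting SD, genes with a non-coding transcript at 20% or more, X-linked genes and hosts of the 4 highest small nucleolar RNA genes; Rps29, Rpl15 and the stalk genes were named after their values were seen. The test was checked on simulated data for replicate 1 against replicate 2 over 14870 genes. It called 50 of 50 genes changed 3-fold, 0 of 50 changed 1.5-fold at the 2-fold limit (42 at any size), and 1 of 14670 unchanged genes (8 at any size). The simulated counts held counting error only, so these rates do not cover spread between real libraries. Alternatives were other scalings, filters, fold limits, units, single libraries and the addition of copies. Symbols of tissue markers were a fixed list for each tissue. A few genes are counted in the totals but not reported here by name.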

Additional observations from a re-analysis of the deposited data

How the results depend on the processing

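No member passed 2-fold under DESeq2 1.42.0 size factors, spike-in scaling, summed mouse counts, no filter or the edgeR exact test. None passed a 1.5-fold limit, while removing the fold limit gave 50 members. The largest member ratio was 1.27-fold under TMM, and spike-in scaling moved the median log2 ratio of all genes to −0.34. These settings thus left little room for another result and are no separate support. In the main test 1.14% of all genes passed 2-fold, so 0 of 88 members is near that share. At any size, counts of members higher and lower in replicate 1 were 46 and 4, against 11.5% and 11% of all genes tested. The member counts came to 0 and 86 under spike-in scaling, 0 and 0 under the edgeR exact test, and 44 and 7 under summed mouse counts. For these other settings the share of all genes at any size was not counted, so their member counts cannot be read as particular to members. The spread used by edgeR came from the same 2 libraries that it compared. The share of counts was 2.99% of all deposited counts, 3.20% without mitochondrial genome and globin genes and 3.36% with pseudogenes by symbol, against 3.13%. The median standard level was 864 TPM by posterior means, 904 by full length and 1084 with copies, and 874 to 880.5 TPM in single libraries, against 886 TPM. Rps27l relative to Rps27 moved to 0.47 by full length and −1.82 with copies, and Rpl7l1 relative to Rpl7 to −3.55 by full length (log2). Counting nonsense-mediated decay transcripts as coding gave 91.7%. With copies, 3 of the 8 highest and 0 of the 8 lowest standard genes kept their place. The additions of copies, and the scalings of the any-size counts, were chosen after seeing the data. Except where a setting is one of construction (copies, types, fold limit), the cause was not tested. No paired analysis was possible because the design has 1 group. Depth limits Rpl39l, Rpl3l and Rpl10l, at 1 count or none.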

Other observations

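Several expressed relatives of ribosomal protein genes fell outside the rule. Rps4l, typed as a transcribed processed pseudogene, had 164 TPM in replicate 1 against 178 TPM in replicate 2. Gm2000, typed as protein-coding and 99.7% identical to Rpl35 in coding sequence, had 755 and 763 TPM in replicates 1 and 2, beside 846 and 749 TPM of Rpl35. Gm10076, typed as a lincRNA, was 100% identical to the coding sequence of Rpl41 and had 336 TPM in replicate 1 against 330 TPM in replicate 2.

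Within 30 member genes lay 58 small nucleolar RNA genes on the same strand, RNAs that guide modification of ribosomal RNA. Of these, 23 had an effective length above 0, since the tables subtract 99 nt from the length, and 13 had at least 1 count in both libraries. Among the highest were Gm26205 in Rpl6, with 18 counts in replicate 1 against 12 in replicate 2, Snora64 in Rps2 and Snora65 in Rpl12, at mean levels of 19.2, 17.5 and 13.6 TPM. Whether these reads came from the small RNAs or from the host transcripts was not tested.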
